A study of Homo sapiens with 47 samples.

Results

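The solute carrier genes that PC3 cells express at a moderate or high level were followed through 3 versions of the line. Members were protein-coding genes whose name has the form SLC, a number, the letter A and a number, and whose mean over the 3 empty-vector libraries was at least 100 normalised reads in the deposited table of the DDC line. SLC2A1, SLC2A3, SLC16A3, SLC7A11 and SLC6A4 were left out by name. Of 342 protein-coding genes with such a name among 62703 genes in the table, 58 reached the level, and 56 remained after SLC2A1 and SLC16A3 were set aside. The members belong to 27 numbered families. A further 9 solute carrier genes reached the level but carry another letter in their name and were not members. The name rule also took in 3 genes that are not carriers: SLC4A1AP and SLC9A3R1 encode an adaptor and a scaffold protein, and SLC7A6OS is the gene on the strand opposite SLC7A6.

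PC3 is an established human prostate cancer cell line. The cells were transduced with an empty vector, with DDC, the decarboxylase that makes serotonin and dopamine, or with SLC6A4, the plasma membrane serotonin transporter, and poly(A) RNA was sequenced from 3 libraries of each. The same 3 lines were profiled by ChIP-seq for histone H3 trimethylated at lysine 4 (H3K4me3) and for the same mark with serotonin attached to the neighbouring glutamine (H3K4me3Q5ser), each in 3 libraries per line, with input libraries of the empty-vector and DDC lines used here. H3K4me3 was also mapped by CUT&Tag, of which 3 conditions with a single library each are used here: control, SLC6A4 overexpression, and SLC6A4 overexpression with a short hairpin against TGM2, a transglutaminase. All lines were grown in the same RPMI medium with serum. The labels give neither the promoter of the constructs nor whether a line is 1 clone or a pool. They also do not say whether libraries came from separate cultures or transductions, so p-values measure only the spread between these libraries.

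Solute carriers are membrane proteins that move sugars, amino acids, nucleosides, vitamins, metals and inorganic ions across the plasma membrane or organelle membranes, without splitting ATP themselves. The family of the mitochondrial carriers, SLC25, exchanges nucleotides, phosphate and metabolites across the inner mitochondrial membrane. The prostate epithelium is known for the zinc and citrate it accumulates, both of which are handled by proteins of this superfamily (SLC30 and SLC39 for zinc, SLC25A1 for mitochondrial citrate).

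The stretches before the start sites of 6 members are printed because these genes carry the clearest differences between the lines or a motif of a factor measured here. RefSeq promoter entries (GRCh38.p14) were found for 48 of the 56 members. In the 250 bases before each start, 3 motifs were searched on both strands. They were TGATGNAA, the core of the element bound by ATF4, CACGTG, the E-box bound by MYC and TFE3, and TATAAA, the TATA box, and none of these letter strings can overlap another in the matches printed. Capitals mark matches, and each line runs 5′ to 3′ along the strand of the gene.
SLC25A3 (chr12:98593436-98593685, plus strand): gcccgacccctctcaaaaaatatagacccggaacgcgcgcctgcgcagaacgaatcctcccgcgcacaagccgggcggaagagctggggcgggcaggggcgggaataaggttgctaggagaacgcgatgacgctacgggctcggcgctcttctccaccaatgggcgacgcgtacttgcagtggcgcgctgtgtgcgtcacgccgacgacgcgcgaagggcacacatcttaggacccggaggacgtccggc
SLC25A5 (chrX:119468194-119468443, plus strand): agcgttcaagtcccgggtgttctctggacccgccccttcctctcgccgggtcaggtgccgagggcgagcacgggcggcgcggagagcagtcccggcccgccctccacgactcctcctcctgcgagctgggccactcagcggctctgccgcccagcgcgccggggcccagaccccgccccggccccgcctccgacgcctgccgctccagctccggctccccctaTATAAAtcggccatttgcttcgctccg
SLC7A5 (chr16:87869508-87869757, minus strand): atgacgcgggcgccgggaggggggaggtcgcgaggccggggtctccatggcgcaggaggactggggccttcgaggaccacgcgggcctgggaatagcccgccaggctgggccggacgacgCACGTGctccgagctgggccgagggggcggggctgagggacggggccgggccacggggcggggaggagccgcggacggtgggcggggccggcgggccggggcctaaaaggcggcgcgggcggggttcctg
SLC29A1 (chr6:44219365-44219614, plus strand): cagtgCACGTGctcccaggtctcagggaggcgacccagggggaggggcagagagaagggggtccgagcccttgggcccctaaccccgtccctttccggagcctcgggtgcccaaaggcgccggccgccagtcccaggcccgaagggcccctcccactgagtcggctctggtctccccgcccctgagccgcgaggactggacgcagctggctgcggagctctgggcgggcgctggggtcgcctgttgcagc
SLC27A5 (chr19:58511993-58512242, minus strand): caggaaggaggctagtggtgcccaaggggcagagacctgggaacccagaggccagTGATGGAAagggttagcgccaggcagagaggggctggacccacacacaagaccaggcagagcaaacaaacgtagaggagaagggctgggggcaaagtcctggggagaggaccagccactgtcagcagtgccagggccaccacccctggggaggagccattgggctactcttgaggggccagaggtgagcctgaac
SLC39A11 (chr17:73092689-73092938, minus strand): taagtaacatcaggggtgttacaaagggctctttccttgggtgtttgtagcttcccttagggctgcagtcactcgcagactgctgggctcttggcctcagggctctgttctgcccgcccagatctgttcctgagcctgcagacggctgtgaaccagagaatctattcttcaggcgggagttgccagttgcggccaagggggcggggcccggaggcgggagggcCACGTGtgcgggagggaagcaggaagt

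CACGTG was present in 10 of the 48 members (20.8%) and in 7.73% of the 27305 genes with a promoter entry. TGATGNAA was present in 3 members (6.25%, against 3.89% of all genes), which were SLC1A5, SLC25A11 and SLC27A5. TATAAA was present in 3 members (6.25%, against 13% of all genes), among them SLC25A5, where it began 27 bases before the start. The E-box of SLC7A5 began 130 bases, that of SLC39A11 27 bases and that of SLC29A1 245 bases before the start, and SLC4A2 held 5 such matches. The median GC content of these windows was 66.0% in the members and 58.0% over all entries, and CACGTG is itself GC-rich. These matches describe letters only.

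RNA libraries held 17.3 M to 21.7 M reads in genes, H3K4me3 libraries 3.43 M to 5.81 M read pairs in regions and input libraries 1.39 M to 1.83 M. H3K4me3Q5ser libraries differed in depth with the line, at 24.1 M to 24.4 M pairs in the empty vector, 13.5 M to 16.7 M in the DDC line and 19.96 M to 24.8 M in the SLC6A4 line. The overexpressed genes matched the labels: over 3 libraries, DDC had 1 read in the empty-vector line, 79 in the DDC line and 3 in the SLC6A4 line, and SLC6A4 had 1, 2 and 344. Epithelial keratin 8 RNA (KRT8) averaged 6697, 4447 and 7331 normalised reads in the 3 lines in that order, keratin 18 (KRT18) 4885, 3475 and 3011, and the epithelial adhesion genes EPCAM 100.2, 26.4 and 74.1 and CDH1 52.9, 3.76 and 22.6. The androgen receptor averaged 0.919, 4.88 and 2.47, and KLK3 was at 0. The levels of 10 markers of blood, endothelial and fibroblast cells summed to 258 to 284 normalised reads in the empty-vector libraries, 81.6 to 109 in the DDC libraries and 55.8 to 79.9 in the SLC6A4 libraries, with 5, 5 and 3 of the 10 at 0 throughout the line. PTPRC, CD3E, VWF and CDH5 were among those at 0 in the empty-vector and DDC lines. In all 3 lines most of that sum was PECAM1 (223, 78.8 and 43.7). The part of these markers in the results was not tested. In RNA from whole cultures, fewer cells with a transcript and less of it per cell cannot be told apart.

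In the empty-vector cells the 56 members together took 0.341% to 0.346% of the reads in genes (0.342% to 0.361% in the DDC line and 0.373% to 0.397% in the SLC6A4 line), and 5 genes accounted for 60.5% of that. SLC25A39, which is needed for mitochondrial glutathione import, had the highest read level, with 14529, 13890.3 and 11472 normalised reads in the 3 libraries, followed by the ADP/ATP exchanger SLC25A5 with 12366, 12116 and 13407. These ranges overlap: SLC25A39 was higher in replicates 1 and 2 and SLC25A5 in replicate 3. The median member had 248 normalised reads, 43 members were under 1000, and the median coefficient of variation among the empty-vector libraries was 6.49%. These levels, like the membership itself, describe the empty-vector libraries and were not tested.

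Levels can be compared between genes only per length. Length here is that of all annotated exons of a gene merged (21.8 kb for SLC25A26 and 8.9 kb for SLC25A3). Which transcripts the cells use was not examined, so the order depends on the annotation. Per kb of exon, the order began with SLC25A5 (8122 normalised reads per kb), SLC25A39 (3771) and SLC25A6, a second ADP/ATP exchanger (1845). The highest member outside the mitochondrial family was SLC50A1, a sugar transporter (593), ahead of the zinc importer SLC39A4 (574). SLC25A26, the mitochondrial S-adenosylmethionine carrier, was lowest at 7.41, and the median was 52.5. The highest amino acid member was SLC3A2 (316), the heavy chain that carries light chains such as SLC7A5 to the cell surface. The highest vitamin, nucleoside or lipid member was SLC27A5 (159). Of the metal and heme members outside the zinc family the highest was SLC48A1 (50.98), of the phosphate members SLC20A1 (53.4) and of the sialic acid and nucleotide sugar members SLC35A4 (135).

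**Figure D1:**
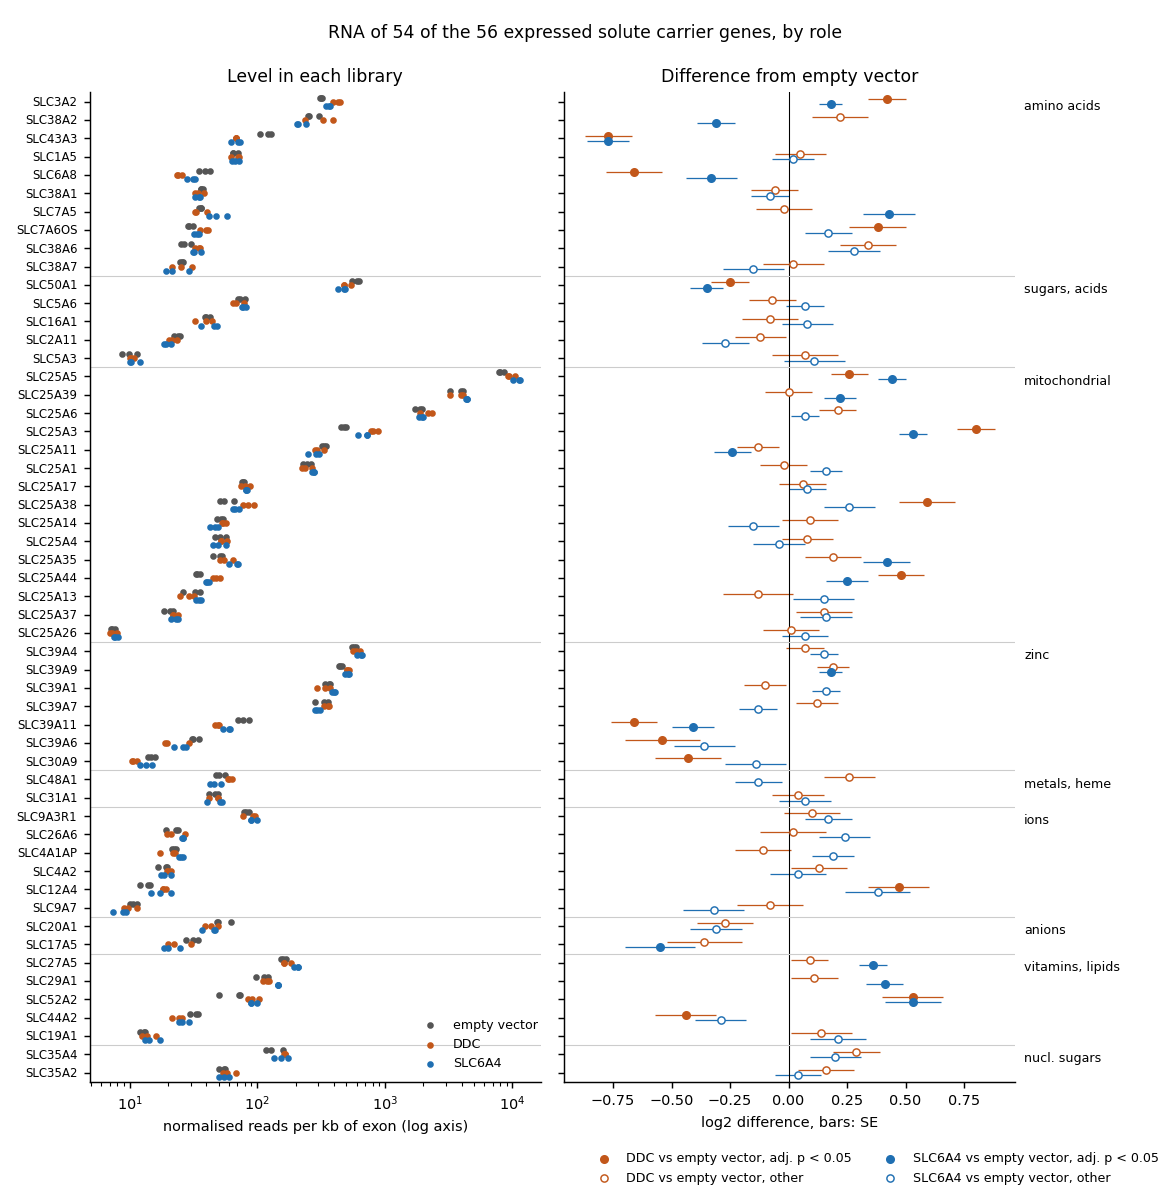
The left panel shows normalised reads per kb of exon on a log axis for each of the 9 libraries (grey empty vector, orange DDC, blue SLC6A4), with 54 of the 56 members in rows, grouped by role. The right panel shows the log2 difference of the DDC and SLC6A4 lines from the empty vector with its standard error, filled where the adjusted p was under 0.05. SLC25A3 lies farthest to the right in the DDC line (0.80) and SLC43A3 farthest to the left in both lines (-0.77).

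At the level threshold, the members just inside were SLC30A9 (104), SLC9A7 (104) and SLC17A5 (104), and the genes just outside were SLC7A6 (98.1), SLC12A2 (97.05) and SLC66A3 (95.1). Exons of 14 members share at least 10% of their bases with another gene. Reads in this table appear to have been counted without strand and in both of 2 overlapping genes: BEST1, whose annotation overlaps FTH1, had 365263 normalised reads beside 419869 for FTH1. The level of a member with such a partner is therefore uncertain, and the partner is named where a result involves it. Partners with far more reads than the member included ERH for SLC39A9, ATRAID for SLC5A6, PQBP1 for SLC35A2, MRPS6 for SLC5A3 and ENSG00000251357 for SLC2A11.

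The first question was which carriers differ between DDC cells and empty-vector cells. At an adjusted p under 0.05 (limma on log2 of normalised reads plus 1, Benjamini-Hochberg over 13146 genes), 8 of the 56 members rose and 7 fell in the DDC line, 26.8% in all. Over all genes tested 17.4% were called (8.94% higher, 8.41% lower), and over the protein-coding genes with at least 100 reads in the empty vector, which are of like depth, 29.6% (17.2% higher, 12.5% lower). The share of the members is close to that of other genes of their level. The median log2 difference of the members was 0.06, against 0.01 over all genes tested, and the range ran from -0.77 to 0.80. The DDC and empty-vector libraries did not overlap in 22 members (39.3%), against 33.3% of all genes tested and 46.5% of the coding genes of that level. Scaling by library size alone moved the median of all genes to -0.12 and the split of members to 5 up and 10 down, so directions are relative to the authors' scaling.

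Against the same empty-vector libraries, 12 members rose and 7 fell in the SLC6A4 line, 33.9% in all, with 19.4% called over 13264 genes (10.2% higher, 9.28% lower) and 34.3% over the coding genes of their level (19.7% and 14.6%). The median log2 difference was 0.08, against 0.01 over all genes tested. Libraries of the 2 groups did not overlap in 36 members (64.3%), against 34.9% of all genes tested and 49.9% of coding genes of that level. Scaling by library size alone gave 9 up and 10 down. Both comparisons share the empty-vector libraries that also set the membership, so their values are given side by side for each gene and not as independent results. Normalised reads printed for a library are on 1 scale fitted to all 9 libraries.

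Among the mitochondrial carriers, 4 of 16 rose and none fell in the DDC line, and 6 rose and 1 fell in the SLC6A4 line. In the DDC line 8.94% of all genes tested rose and 8.41% fell (17.2% and 12.5% of coding genes of like level). In the SLC6A4 line 10.2% rose and 9.28% fell (19.7% and 14.6%). The counts of every role below are to be set beside these shares, and no role was tested as a set. SLC25A3, the carrier that brings phosphate (and copper) into the matrix, lies at chr12:98593591-98606379 in GRCh38 and showed the largest rise of any member in the DDC line. Its level was 4380.2, 4243 and 4017 in the empty-vector libraries, 6913, 7874 and 7143 in the DDC libraries and 5432, 6444 and 6413 in the SLC6A4 libraries. The 3 groups did not overlap, with the DDC line highest. The log2 difference from the empty vector was 0.80 ± 0.08 (SE; adjusted p = 6.76e-08) in the DDC line and 0.53 ± 0.06 (adjusted p = 1.12e-05) in the SLC6A4 line.

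SLC25A5 was called in both lines as well. Its libraries gave 14669, 14399 and 16215 normalised reads in the DDC line and 15827, 17842 and 17564 in the SLC6A4 line, all above every empty-vector library, for log2 differences of 0.26 ± 0.08 (adjusted p = 0.0274) and 0.44 ± 0.06 (adjusted p = 2.48e-05). Its exons share 13.2% of their bases with SLC25A5-AS1, and 9 annotated SLC25A5 pseudogenes held 1.01 reads in the mean of the empty-vector libraries. The other ADP/ATP exchangers were not called: SLC25A6 had log2 differences of 0.21 and 0.07 (adjusted p = 0.0894 and 0.468), and SLC25A4 0.08 and -0.04.

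SLC25A38, which imports glycine for heme synthesis, rose in the DDC line from 174, 145 and 135 to 206, 226 and 249.6 (log2 0.59 ± 0.12, adjusted p = 0.00161), and the groups did not overlap. In the SLC6A4 line its level was 177, 192 and 173 and the difference was not called (0.26, adjusted p = 0.116). SLC25A44, a carrier of branched-chain amino acids, had 243, 245 and 261 in the empty vector, 326, 373 and 348 in the DDC line and 288, 305 and 297 in the SLC6A4 line, where both lines lay above all empty-vector libraries. Its log2 difference was 0.48 ± 0.10 (adjusted p = 0.00154) and 0.25 ± 0.09 (adjusted p = 0.0488), the second of which lies at the threshold.

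A further group was called in the SLC6A4 line. SLC25A39 had 15175, 15601 and 15394 in the SLC6A4 line, a narrow range above all empty-vector libraries (log2 0.22 ± 0.07, adjusted p = 0.029), while its DDC value was 0.00. SLC25A35 rose by 0.42 ± 0.10 (adjusted p = 0.00636), but 28.7% of its exon bases are shared with RANGRF on the other strand. The single fall was SLC25A11, the exchanger of oxoglutarate and malate, from 852, 824 and 794 to 619, 754 and 719 (log2 -0.24 ± 0.08, adjusted p = 0.0342). The citrate carrier SLC25A1 was not called in either line (-0.02 and 0.16), nor were the iron importer SLC25A37, the aspartate and glutamate carrier SLC25A13, SLC25A14, the peroxisomal SLC25A17 or SLC25A26.

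Of the 10 members from amino acid families, 2 rose and 2 fell in the DDC line and 2 rose and 3 fell in the SLC6A4 line. SLC43A3 (chr11:57406954-57427580 in GRCh38), which belongs to a family of neutral amino acid facilitators and is known to carry purine nucleobases, had the largest fall of any member in both lines. Its level was 545, 577 and 471 in the empty vector, 309.5, 308 and 309 in the DDC line and 283, 318 and 331 in the SLC6A4 line. Every library of both lines lay below every empty-vector library, and the lines overlapped each other. The log2 difference was -0.77 ± 0.10 (adjusted p = 4.68e-06) and -0.77 ± 0.09 (adjusted p = 8.74e-06). Of its exon bases 29.9% are shared with ENSG00000254979, a gene on the same strand.

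SLC6A8, the creatine transporter, fell in both lines too. The libraries held 221, 244 and 199 in the empty vector, 145, 134 and 136 in the DDC line and 186, 179 and 160.4 in the SLC6A4 line, so that the 3 groups were separate. The log2 difference was -0.66 ± 0.12 (adjusted p = 0.000328) and -0.33 ± 0.11 (adjusted p = 0.0337).

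The heavy chain SLC3A2 rose from 2057, 2028 and 1966 to 2487, 2737 and 2838 in the DDC line and 2195, 2322 and 2357 in the SLC6A4 line (log2 0.42 ± 0.08, adjusted p = 0.000489, and 0.18 ± 0.05, adjusted p = 0.0246). Its light chain SLC7A5, the importer of large neutral amino acids including tryptophan, stood at 167, 173 and 173 in the empty vector, 157, 193 and 156 in the DDC line and 199, 225 and 275 in the SLC6A4 line. All 3 SLC6A4 libraries lay above every empty-vector library and the DDC libraries overlapped the empty vector, for a log2 difference of 0.43 ± 0.11 (adjusted p = 0.0113) beside -0.02 ± 0.12 (adjusted p = 0.924) in the DDC line. SLC38A2, a sodium-coupled importer of small neutral amino acids, had 1969, 1639 and 1648 in the empty vector and fell to 1323, 1351 and 1555 in the SLC6A4 line (log2 -0.31 ± 0.08, adjusted p = 0.00788). The DDC libraries were spread widely, at 2146, 2532 and 1536, and the difference was not called (0.22 ± 0.12, adjusted p = 0.229).

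SLC7A6OS was called in the DDC line (0.38 ± 0.12, adjusted p = 0.0277), but 64.5% of its exon bases lie in SLC7A6 on the other strand, so these genes cannot be told apart here. The glutamine transporter SLC1A5 (0.05 and 0.02), the related importer SLC38A1 (-0.06 and -0.08), the lysosomal SLC38A7 (0.02 and -0.15) and SLC38A6 (0.34 and 0.28) were not called in either line.

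**Figure D2:**
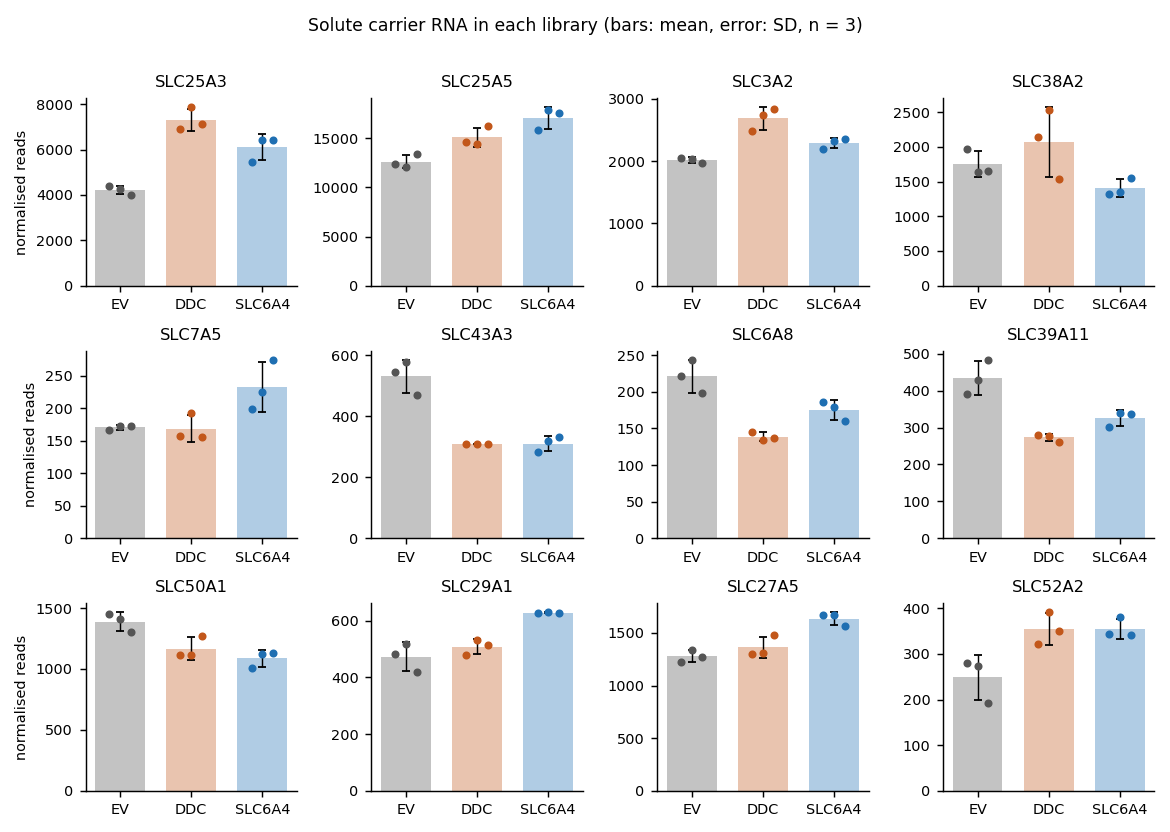
Each panel shows 1 member, with normalised reads on an axis from 0, a point for each library, bars for the mean and error bars for the SD (n = 3 per line; EV, empty vector). SLC25A3 separates all 3 lines, SLC43A3 lies lower in both lines than in every empty-vector library, and SLC7A5 lies highest in the SLC6A4 libraries.

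Of the 7 zinc members, 3 fell and none rose in the DDC line (8.41% of all genes tested and 12.5% of coding genes of like level fell), and 1 rose and 1 fell in the SLC6A4 line. The DDC line calls of SLC39A6 and SLC30A9 were lost with DESeq2 and without single libraries. SLC39A11, an importer of zinc on Golgi and other membranes (chr17:72645949-73092712 in GRCh38), had 392, 428 and 484 in the empty vector, 280.5, 277 and 262 in the DDC line and 301, 339 and 338 in the SLC6A4 line. Both lines lay below the empty vector without overlap, and the DDC line lay lowest. The log2 difference was -0.66 ± 0.10 (adjusted p = 6.35e-05) and -0.41 ± 0.09 (adjusted p = 0.00366).

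The plasma membrane importer SLC39A6 fell in the DDC line from 114, 129 and 116 to 72.7, 108 and 69.6 (log2 -0.54 ± 0.16, adjusted p = 0.0225), without overlap, with a difference of -0.36 (adjusted p = 0.0612) in the SLC6A4 line. SLC30A9, a zinc transporter of mitochondria, fell from 105, 113 and 100.2 to 82.1, 77.01 and 75.6 (log2 -0.43 ± 0.14, adjusted p = 0.0386). It is one of the members nearest to the level threshold. SLC39A9 was called higher in the SLC6A4 line (0.18 ± 0.05, adjusted p = 0.0226), beside 0.19 (adjusted p = 0.0737) in the DDC line, with ERH as its overlapping partner. SLC39A4, SLC39A1 and SLC39A7 were not called against the empty vector in either line. The heme transporter SLC48A1 and the copper importer SLC31A1 were not called in these comparisons either.

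Among the 5 members of the sugar, polyol and monocarboxylate families, SLC50A1 alone was called, and it fell in both lines. It had 1455, 1406 and 1301 in the empty vector, 1114, 1113 and 1274 in the DDC line and 1008, 1124 and 1133 in the SLC6A4 line, all below the empty vector (log2 -0.25 ± 0.08, adjusted p = 0.0444, and -0.35 ± 0.07, adjusted p = 0.00107). The lactate transporter SLC16A1 had log2 differences of -0.08 and 0.08, the glucose transporter relative SLC2A11 -0.12 and -0.27, the inositol transporter SLC5A3 0.07 and 0.11, and the biotin and pantothenate transporter SLC5A6 -0.07 and 0.07.

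In the families of vitamins, choline, nucleosides and fatty acids, 1 of 5 rose and 1 fell in the DDC line, and 3 rose in the SLC6A4 line. SLC52A2, a riboflavin transporter, had 279.8, 274 and 193 in the empty vector, 322, 392 and 350.1 in the DDC line and 344, 380.3 and 341 in the SLC6A4 line, with both lines above the empty vector and 1 empty-vector library well under the others. The log2 difference was 0.53 ± 0.13 (adjusted p = 0.00481) and 0.53 ± 0.12 (adjusted p = 0.004). Of its exon bases 50.0% are shared with other genes, 27.98% of them with FBXL6 on the other strand. The nucleoside transporter SLC29A1 had an even level of 627, 629.9 and 628 in the SLC6A4 line against 481, 518 and 419 in the empty vector and 479.9, 530.2 and 515 in the DDC line. Its log2 difference was 0.41 ± 0.08 (adjusted p = 0.0012) in the SLC6A4 line and 0.11 (adjusted p = 0.475) in the DDC line. SLC27A5, which couples bile acids and long fatty acids to coenzyme A, rose in the SLC6A4 line from 1221, 1339 and 1275 to 1669, 1673 and 1562 (log2 0.36 ± 0.06, adjusted p = 0.000381), without overlap. ZNF446 on the other strand covers 14.1% of its exon bases. SLC44A2, of the choline transporter family, fell in the DDC line from 165, 169 and 147 to 120.5, 106 and 127 (log2 -0.44 ± 0.13, adjusted p = 0.0205). The folate carrier SLC19A1 was not called.

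Few members for inorganic ions or anions were called. Of 7 ion carriers and partners, SLC12A4, a potassium-chloride cotransporter, rose in the DDC line from 101, 118 and 121 to 154, 162 and 153 (log2 0.47 ± 0.13, adjusted p = 0.0124), and none was called in the SLC6A4 line, where SLC12A4 had 145, 176 and 124 and a difference of 0.38 (adjusted p = 0.0614). The proton exchanger SLC9A7, the anion exchangers SLC4A2 and SLC26A6, the scaffold SLC9A3R1 and the adaptor SLC4A1AP were not called in either line. SLC17A5, which releases sialic acid from lysosomes, fell in the SLC6A4 line from 107, 94.7 and 118 to 85.6, 63.5 and 68.7 (log2 -0.55 ± 0.15, adjusted p = 0.0126). The phosphate importer SLC20A1 had -0.27 and -0.31 and was not called, and neither of the nucleotide sugar family members SLC35A2 and SLC35A4 was called.

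Of the 15 calls in the DDC line, 8 held under every alternative tried (other filters, tools and scalings, a replicate term and each library left out). The other 7 were each lost without single libraries: SLC12A4 without empty-vector replicate 1, and SLC25A5 without empty-vector replicate 1 or 2. SLC39A6 was lost without empty-vector replicate 2 or DDC replicate 1 or 3, and SLC44A2 without empty-vector replicate 1 or 2 or DDC replicate 2. SLC7A6OS was lost without empty-vector replicate 1 or 3 or DDC replicate 2 or 3, SLC50A1 without empty-vector or DDC replicate 1 or 2, and SLC30A9 with any one of the 6 libraries left out. Scaling by library size also ended the calls of SLC12A4, SLC25A5 and SLC7A6OS, DESeq2 those of SLC7A6OS, SLC30A9, SLC39A6, SLC44A2 and SLC50A1, and the lack of a filter those of SLC30A9 and SLC50A1. Their largest adjusted p over all alternatives was 0.101 for SLC12A4, 0.176 for SLC25A5, 0.0999 for SLC39A6, 0.0926 for SLC44A2, 0.154 for SLC7A6OS, 0.173 for SLC50A1 and 0.148 for SLC30A9.

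In the SLC6A4 line 11 of the 19 calls held under every alternative. SLC7A5 was lost without SLC6A4 replicate 3 (largest adjusted p = 0.0839) and SLC17A5 without empty-vector replicate 3 or SLC6A4 replicate 2 (0.0656). SLC25A39 was lost without empty-vector replicate 3 or SLC6A4 replicate 2 or 3 (0.107), and SLC25A11 without empty-vector replicate 1 or 2 or SLC6A4 replicate 1 or 3 (0.155). SLC6A8 was lost without replicate 1 or 2 of the empty vector or 2 or 3 of the SLC6A4 line (0.155). SLC3A2 was lost without replicate 2 or 3 of either group (0.107), and SLC39A9 without empty-vector replicate 1 or 2 or SLC6A4 replicate 1 or 3 (0.107). SLC25A44 was lost without empty-vector replicate 1 or 2, with any one SLC6A4 library left out, and with DESeq2, edgeR, scaling by library size, no filter or the replicate block (0.174). DESeq2 also ended the calls of SLC25A39 and SLC6A8, scaling by library size those of SLC39A9 and SLC3A2, and the replicate block that of SLC3A2. The submitters' own tests called fewer members: the authors' deposited table of the DDC line had 6 higher and 3 lower, and the authors' deposited table of the SLC6A4 line 11 higher and 4 lower.

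The next comparison set the DDC line against the SLC6A4 line directly, which leaves the empty-vector level, the basis of the membership, out of the difference. Of the 56 members, 5 were higher in the DDC line and 5 higher in the SLC6A4 line, 17.9% in all, with 13.2% called over 13544 genes (6.47% higher, 6.74% lower) and 24% over the coding genes of their level (12.9% and 11.1%). The median log2 difference of the members was -0.01. Libraries of the lines did not overlap in 21 members (37.5%), against 28.7% of all genes tested and 41.1% of the coding genes of that level. With scaling by library size alone, 1 was higher in the DDC line and 11 in the SLC6A4 line.

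Higher in the DDC line were SLC38A2 (log2 0.53 ± 0.12, adjusted p = 0.00509), the heme transporter SLC48A1 (0.38 ± 0.10, adjusted p = 0.0143), SLC25A3 (0.26 ± 0.07, adjusted p = 0.0208), the zinc transporter of the endoplasmic reticulum SLC39A7 (0.25 ± 0.08, adjusted p = 0.0471) and SLC3A2 (0.23 ± 0.07, adjusted p = 0.0286). SLC48A1 had 293, 310.2 and 290.4 in the DDC line and 208, 223 and 255 in the SLC6A4 line, with the empty vector at 274, 246 and 232, below the DDC line and overlapping the SLC6A4 line. SLC39A7 had 1334, 1454 and 1428 against 1135, 1252 and 1169. For SLC38A2, DDC replicate 3 lay within the range of the SLC6A4 libraries, so these groups overlapped. SLC38A2 was the only one of the 10 whose call held under every alternative, with log2 differences from 0.37 to 0.73.

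Among the 5 higher in the SLC6A4 line were SLC7A5 (log2 -0.46 ± 0.12, adjusted p = 0.014), SLC29A1 (-0.31 ± 0.09, adjusted p = 0.0209), SLC27A5 (-0.26 ± 0.07, adjusted p = 0.0173) and SLC39A1 (-0.26 ± 0.08, adjusted p = 0.0364). SLC39A1, a zinc importer, had 999, 1144 and 1253 in the DDC line and 1311, 1374 and 1355 in the SLC6A4 line, and a fused gene on the same strand (ENSG00000285779) covers 60.8% of its exon bases. The heavy chain SLC3A2 and its light chain SLC7A5 thus lay on opposite sides of this comparison. Apart from SLC38A2, each of these calls was lost without single libraries. SLC6A4 replicate 1 left out ended 8 of the 9. SLC7A5 was lost without DDC replicate 1 or 3 or SLC6A4 replicate 3 (largest adjusted p = 0.121), and SLC25A3 without DDC replicate 2 or SLC6A4 replicate 1 (0.147). SLC48A1 was lost without DDC replicate 2 or SLC6A4 replicate 1 or 2 (0.0791), and SLC27A5 without replicate 1 or 2 of either line (0.0791). SLC29A1 (0.0765), SLC39A1 (0.176), SLC39A7 (0.22) and SLC3A2 (0.13) were lost with any one of the 3 SLC6A4 libraries left out. They were also lost without DDC replicate 1 (SLC29A1, SLC39A1), 2 (SLC39A1, SLC39A7, SLC3A2) or 3 (SLC39A7, SLC3A2), and without empty-vector replicate 1 (SLC39A7), which enters the pooled estimate of spread. Scaling by library size also ended the calls of SLC25A3, SLC48A1, SLC3A2 and SLC39A7, and the lack of a filter those of SLC39A1, SLC39A7 and SLC3A2. DESeq2 and the replicate block ended that of SLC39A7, and a fit on only the 6 libraries of both lines that of SLC39A1.

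**Figure D3:**
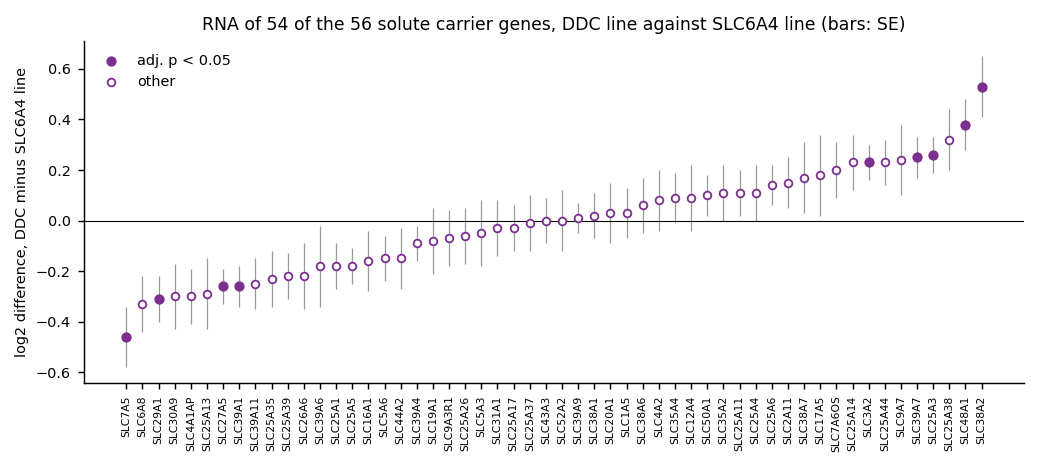
The log2 difference of the DDC line minus the SLC6A4 line is drawn for 54 of the 56 members in rising order, with its standard error and filled points where the adjusted p was under 0.05. SLC7A5 stands at the low end (-0.46) and SLC38A2 at the high end (0.53).

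The start sites were then examined in the chromatin data. H3K4me3 marks the start regions of active genes, and its serotonylated form carries serotonin on the adjacent glutamine, which transglutaminase attaches. A region of the deposited H3K4me3Q5ser peak set lay within 1000 bp of the start of 53 of the 56 members (94.6%, against 92.0% of protein-coding genes of their level). SLC48A1, SLC25A26 and SLC19A1 had none. An H3K4me3 peak lay there in 42 members (75.0%), against 84.2% of those genes. Several members named below for their marks had a region but no such peak. Among these were SLC25A1, SLC25A6, SLC27A5, SLC29A1, SLC39A4, SLC44A2, SLC52A2, SLC6A8 and SLC12A4. These regions are broad, with a median of 10898 bp at the members and a range from 480 to 64458 bp. Of them, 19 are also the nearest region within 1000 bp of the start of another protein-coding gene. Starts said below to be held by a region are counted in this way. Values are read pairs in the region scaled to library depth (CPM), and the same regions were used for both marks.

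H3K4me3Q5ser was called higher in the DDC line at 27 member regions and lower at 12 (50.9% and 22.6%; edgeR quasi-likelihood test, adjusted p under 0.05), against 29.7% and 31.5% of all 19535 regions. Regions at the starts of protein-coding genes of like level gave 45% and 26.7%, close to the members. The median log2 difference was small, 0.07, with a range from -0.42 to 0.39. SLC25A3 had the largest rise: its region (chr12:98589051-98600685) had 108, 108 and 105 CPM in the empty vector and 142, 139 and 141 in the DDC line (log2 0.39, adjusted p = 1.88e-28). SLC12A4 followed, from 35.1, 37.2 and 36.3 to 46.8, 48.8 and 45.9 (0.38, adjusted p = 1.63e-14). SLC43A3 had the largest fall, from 15.4, 15.3 and 15.03 to 11.8, 11.4 and 11.04 (-0.42, adjusted p = 5.33e-07), and SLC17A5 fell from 67.7, 71.4 and 71.6 to 55.6, 54.1 and 56.6 (-0.34, adjusted p = 3.04e-15).

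H3K4me3Q5ser in the SLC6A4 line was higher at 37 member regions and lower at 10 (69.8% and 18.9%), against 41% and 41.5% of all regions and 57.8% and 31.5% of the start regions of like genes. The median of the members was 0.25, and that of the start regions of like genes 0.14. The highest was SLC25A1 (chr22:19167187-19180144), with 72.9, 68.6 and 70.8 in the empty vector, 82.02, 84.5 and 80.5 in the DDC line and 155, 149 and 154 in the SLC6A4 line (log2 1.11, adjusted p = 1.46e-69). SLC25A39 had 126, 123 and 123 and 244, 230.4 and 232 (0.92, adjusted p = 2.33e-70). The ranges of these groups are far apart. SLC52A2 (0.87, at only 2.98, 3.54 and 2.94 CPM), the scaffold gene SLC9A3R1 (0.81), SLC6A8 (0.79) and SLC12A4 (0.79) came next. Called lower were SLC17A5 (-0.56, adjusted p = 8.05e-31), SLC38A6 (-0.56, adjusted p = 1.31e-57) and SLC30A9 (-0.47, adjusted p = 9.33e-34).

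Plain H3K4me3 in the same regions was higher at 8 members and lower at 5 in the DDC line (15.1% and 9.43%), against 8.3% and 9.36% of all 18976 regions tested and 12.3% and 8.05% of the start regions of like genes. SLC25A3 rose from 90.2, 85.1 and 80.7 to 116, 99.5 and 108 (log2 0.34, adjusted p = 1.37e-06), and SLC43A3 fell from 27.9, 32.2 and 25.2 to 19.96, 23.1 and 22.1 (-0.39, adjusted p = 0.00937). The call of SLC43A3 was lost without DDC replicate 1, without empty-vector replicate 2 and with DESeq2, where the adjusted p reached 0.171. SLC25A39 moved the other way from its serotonylated mark, from 103, 105 and 115 to 94.1, 88.1 and 94.2 (-0.23, adjusted p = 0.00147), a call that was lost without empty-vector replicate 3 (adjusted p = 0.0593).

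H3K4me3 in the SLC6A4 line was higher at 30 and lower at 7 member regions (56.6% and 13.2%), against 31.9% and 29.7% of all regions and 41.1% and 27% of the start regions of like genes. The median of the members was 0.23, and that of the start regions of like genes 0.08. SLC27A5 had the largest rise, from 78.5, 85.4 and 77.1 to 136, 128 and 131 (log2 0.71, adjusted p = 1.14e-34), although no H3K4me3 peak lay at its start. SLC38A6 had the largest fall, from 341, 328 and 341 to 247, 244 and 247 (-0.45, adjusted p = 1.21e-39), in a region that also holds the start of another gene. SLC25A3, called in the DDC line, had 87.3, 88.7 and 82.5 here (0.02, adjusted p = 0.837). Input was tested in the same way for the DDC line, where 4 member regions were called higher (7.55%) and none lower, against 2.69% and 3.66% of all 18044 regions and 4.11% and 3.76% of the start regions of like genes, and among these were SLC7A6OS (0.36), SLC44A2 (0.25) and SLC39A4 (0.11). DESeq2 called none of these 4. H3K4me3Q5ser in the DDC line differed by 0.31 at SLC7A6OS and by 0.26 at SLC44A2. Leaving out DDC input replicate 3 ended the input calls of SLC7A6OS, SLC39A4 and SLC44A2, and so did leaving out empty-vector input replicate 2. Input values of the SLC6A4 line were not analysed here, so a difference in chromatin input cannot be told apart from one in the marks there.

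**Figure D4:**
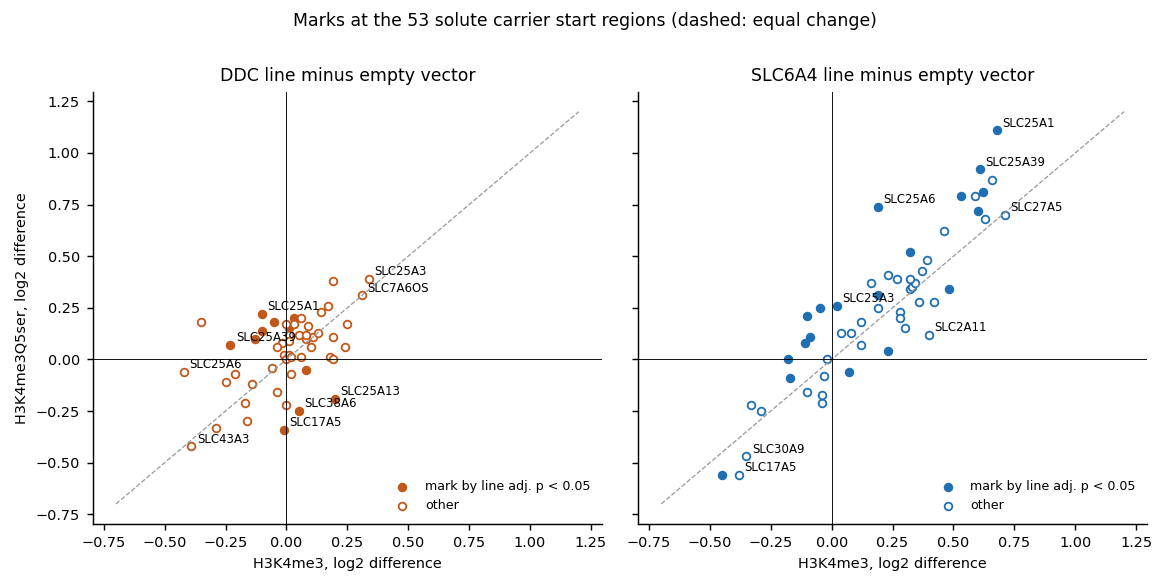
For the 53 members with a start region, the log2 difference in H3K4me3Q5ser (vertical) is plotted against that in H3K4me3 (horizontal), for the DDC line on the left and the SLC6A4 line on the right. The dashed line marks equal change and filled points differ between the marks at an adjusted p under 0.05. Members spread little in the DDC line and along the diagonal in the SLC6A4 line, with SLC25A1 at the top (1.11).

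A mark by line term asked whether the serotonylated mark moved relative to plain H3K4me3. In the DDC line it was called higher at 7 and lower at 4 member regions (13.2% and 7.55%), against 5.12% and 9.9% of all 19529 regions and 11.7% and 8.24% of the start regions of like genes. Among those called higher were SLC25A39 (0.31, adjusted p = 7.76e-05), SLC25A1 (0.33, adjusted p = 0.00204) and SLC3A2 (0.18, adjusted p = 8.27e-07), whose region of 58506 bp holds 4 gene starts. Called lower were SLC38A6 (-0.29), SLC17A5 (-0.32), SLC25A13 (-0.38) and SLC16A1 (-0.12). At SLC17A5, H3K4me3 in the DDC line was 73.1, 69.3 and 60.2 against 73.8, 61.5 and 69.1 in the empty vector (log2 -0.01, adjusted p = 0.939), while its serotonylated form was called lower. SLC25A13, the gene of a mitochondrial exchanger of aspartate and glutamate, was lost without empty-vector H3K4me3 replicate 3 (adjusted p = 0.0766), and SLC16A1 under 8 alternatives, without any one of 3 H3K4me3Q5ser and 4 H3K4me3 libraries among them (largest adjusted p = 0.145).

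For the SLC6A4 line the term was called higher at 15 and lower at 4 member regions (28.3% and 7.55%), against 14.4% and 14.7% of all regions and 28.5% and 7.94% of the start regions of like genes, so the members are close to other genes of their level. Scaling by library size alone gave 6 and 11, and moved the median of all regions from -0.01 to -0.10. SLC25A6 (0.54, adjusted p = 0.00758) and SLC25A1 (0.43, adjusted p = 1.88e-07) had the largest differences. SLC25A6 had 15.5, 16.6 and 17.1 CPM of H3K4me3Q5ser in the empty vector and 29.1, 27.3 and 25.8 in the SLC6A4 line, with H3K4me3 at 10.9, 11.6 and 12.3 and 14.8, 11.1 and 14.03. At the phosphate importer SLC20A1 the serotonylated mark rose from 162, 165 and 162 to 193, 193 and 193 while H3K4me3 was 153, 140.0 and 147 and 136, 145 and 142, for a mark by line value of 0.29 (adjusted p = 3.72e-07).

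RNA and start-region marks were set side by side for the members. In the DDC line, SLC25A3 rose in RNA, in H3K4me3Q5ser and in H3K4me3, and SLC43A3 fell in all 3. SLC12A4 rose in RNA and in H3K4me3Q5ser. SLC6A8 fell in RNA and in H3K4me3Q5ser (-0.33, adjusted p = 0.000443), whereas SLC44A2 and SLC39A6 fell in RNA and were called higher in H3K4me3Q5ser (0.26 and 0.16). Input at the SLC44A2 region was also called higher (log2 0.25), though not with DESeq2, and at the SLC39A6 region it differed by 0.01. The region of SLC6A8 lies 604 bp from the SLC6A8 start and does not contain it. The regions of SLC6A8 and SLC39A6 are each also the nearest region of another protein-coding gene start. SLC25A38 rose in RNA with a mark difference of 0.00 (adjusted p = 0.925). Across the 53 members Spearman's rho between the RNA and H3K4me3Q5ser differences was 0.449, and across 4357 coding genes of their level it was 0.322. Genes share their libraries and some share regions, so these are descriptions across genes.

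In the SLC6A4 line, SLC17A5 fell in RNA and in both marks, and SLC25A5, SLC29A1, SLC27A5 and SLC52A2 rose in RNA and in both marks. Of the risen genes only SLC25A5 had an H3K4me3 peak at its start. The SLC52A2 region is 480 bp long and lies 361 bp from the start. Its H3K4me3Q5ser level was low, at 1.54, 1.9 and 1.72 CPM in the empty vector. SLC6A8 fell in RNA while H3K4me3Q5ser at its region rose from 11.1, 11.04 and 11.7 to 19.7, 18.9 and 19.8 (log2 0.79, adjusted p = 4.91e-22). That region lies 604 bp from the SLC6A8 start and is also the nearest region of a second gene start, so the rise cannot be assigned to SLC6A8. SLC39A11 likewise fell in RNA while its region rose from 26.8, 27.8 and 26.2 to 37.02, 40.1 and 35.8 (0.48, adjusted p = 4.86e-19) and so did SLC25A11 (0.52). The SLC25A11 region spans 19574 bp and holds 5 protein-coding gene starts. SLC43A3 fell in RNA with a mark difference of 0.13 (adjusted p = 0.0508). SLC25A1, with the largest rise in the mark, had RNA at 491, 525 and 459.6 in the empty vector and 558, 553 and 536 in the SLC6A4 line, above it without overlap but not called (log2 0.16 ± 0.07, adjusted p = 0.144). Spearman's rho was 0.246 across the 53 members and 0.149 across the 4357 coding genes. For SLC7A5, H3K4me3Q5ser was 33.3, 32.6 and 32.6 in the empty vector, 27.5, 27.7 and 29.5 in the DDC line (-0.22, adjusted p = 3.49e-05) and 41.1, 37.8 and 38.2 in the SLC6A4 line (0.25, adjusted p = 4.1e-08), and the 3 groups were separate.

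**Figure D5:**
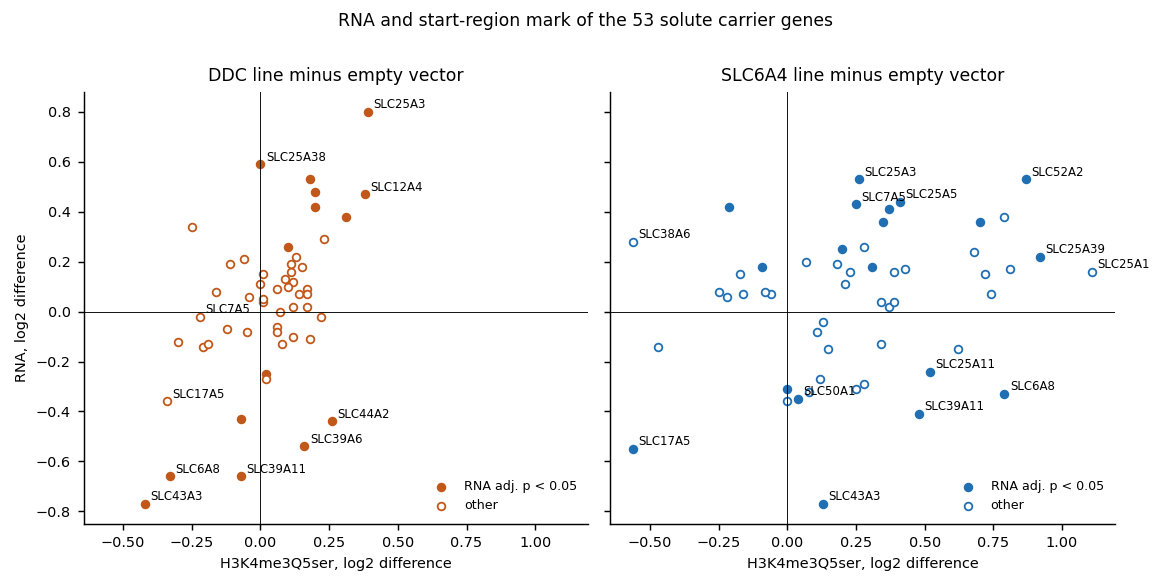
The log2 difference in RNA (vertical) is plotted against that in H3K4me3Q5ser at the start region (horizontal) for 53 members, with the DDC line on the left and the SLC6A4 line on the right, and filled points where RNA had an adjusted p under 0.05. SLC25A3 and SLC43A3 lie in opposite corners in the DDC line, while SLC6A8 and SLC39A11 lie at lower right in the SLC6A4 line.

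CUT&Tag values were deposited as CPM for 13882 H3K4me3 peaks that the authors set apart as not dependent on the serotonylated mark, none of them on their list of 2163 peaks named as up, whose rule is not given in the sources used here. The largest ratio of SLC6A4 over control cells in that table was 1.25, so no peak with a larger ratio could be seen in it, and nothing was read from the ratios about the carriers. With 1 library a group there was no test. The table held a peak within 1000 bp of 39 member starts. SLC25A3 had 11.4 CPM in control cells, 14 in SLC6A4 cells and 11.5 with the hairpin against TGM2, and SLC25A14 had 8.33, 9.25 and 6.67. These members had the lowest ratios of hairpin to SLC6A4 cells among the 39, at 0.824 and 0.721. The median ratio was 0.971, with 22 of the 39 below 1. Over coding genes of their level the median was 0.962, with 2022 of 2971 below 1. The deposited list of peaks named as up held a peak at 7 member starts (12.5%, against 18.7% of coding genes of that level): SLC25A3, SLC25A5, SLC3A2, SLC38A2, SLC39A6, SLC39A7 and SLC4A1AP.

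Genes that work with the carriers were read from 3 lists, to be set beside the 17.4% of all genes tested that were called in the DDC line and 19.4% in the SLC6A4 line (29.6% and 34.3% of coding genes of like level). Of 30 accessory proteins and carriers with other names, 24 were measured against the empty vector, where 4 rose and 1 fell in the DDC line and 4 rose and 3 fell in the SLC6A4 line. MPC2, a subunit of the mitochondrial pyruvate carrier, rose from 2720.4 ± 63.3 to 4153 ± 331 in the DDC line and 3541 ± 67.8 in the SLC6A4 line (mean ± SD, n = 3; log2 0.61 and 0.38, adjusted p = 4.6e-06 and 3.25e-05). MTCH2 of the outer mitochondrial membrane rose in both lines (0.23 and 0.18), MTCH1 in the SLC6A4 line (0.21). The organic anion transporter SLCO4A1 had 1356 ± 139.8 in the empty vector, 1078 ± 127 in the DDC line and 583 ± 11.8 in the SLC6A4 line, and fell in both (-0.33 and -1.21, adjusted p = 0.0176 and 2.15e-09). CTNS (0.43) and MFSD10 (0.70) rose in the DDC line. In the SLC6A4 line MFSD12 rose (0.69), and SFXN3 (-0.57) and LAPTM4B (-0.31) fell.

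Of the ATP-driven pumps and ABC transporters, 24 of 32 were measured. In the DDC line 2 rose (ATP2B4 0.52, ABCB8 0.34) and 4 fell (among them ATP1B1 -0.78, ABCD3 -0.61 and ABCA7 -0.43), and in the SLC6A4 line none rose and 2 fell, the calcium pump ATP2B1 (-0.56, adjusted p = 0.000432) and ABCC3 (-0.49, adjusted p = 0.000572). Of the factors and sensors known to act on carriers, 27 of 29 were measured, and 6 rose and 3 fell in the DDC line, and 4 rose and 3 fell in the SLC6A4 line. HIF1A fell in both (-0.65 and -0.70), and KEAP1 (0.61 and 0.54) and ATF5 (0.61 and 0.75) rose in both. ATF4, the factor induced by amino acid shortage, had 355 ± 29.5 in the empty vector, 322 ± 24.02 in the DDC line and 255 ± 15.9 in the SLC6A4 line, and fell in the latter (-0.47, adjusted p = 0.00116). It was higher in the DDC than in the SLC6A4 line (0.34, adjusted p = 0.0235). In the DDC line DDIT3 (0.59), TFE3 (0.50), ESRRA (0.39) and NR1H2 (0.38) rose and TXNIP (-1.11) and NFE2L2 (-0.33) fell. The SLC6A4 line had rises of NEDD4L (0.43) and MLXIP (0.37) and a fall of MYC (-0.38). Between the lines, NEDD4L, a ubiquitin ligase that removes carriers from the membrane, showed the largest difference of this list, -0.78 in DDC minus SLC6A4 (adjusted p = 3.53e-05).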

How the data were processed

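RNA values were gene counts that the authors divided by DESeq2 size factors, a normalised signal, one table per line beside the shared empty vector. Per the submitters' processing notes, HISAT2 2.1.0 aligned reads to GRCh38. All values came out as whole reads (100%, tolerance 0.001), so the reads could be recovered. The deposited tables also hold the authors' log2 fold changes and adjusted p-values. ChIP values were deposited as fractional, expected counts per region, with multi-mapping and overlapping reads shared out per the file headers, and were rounded (9.78% of values were not whole). CUT&Tag values were deposited CPM, 1 library a group, only for peaks the authors filed as not dependent on the serotonylated mark. Peak lists were used for positions only.

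RNA was tested with limma 3.58.1 on log2(normalised reads + 1), for genes that reached 10 normalised reads in 3 or more libraries. The DDC and SLC6A4 lines were compared after scaling the recovered reads of all 9 libraries together. Fold changes on this scale are understated for low genes. Regions were tested with edgeR 4.0.16 (quasi-likelihood, TMM, filterByExpr), and the mark by line term over the 18 libraries of both marks. The Benjamini-Hochberg threshold was 0.05. Recovered reads were also tested with edgeR, which called 8 and 7 members in the DDC line, 11 and 8 in the SLC6A4 line and 5 and 4 between the lines, and with DESeq2 1.42.0. A start region is the nearest region within 1000 bp of the GENCODE start.

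Members, lists and tests were chosen with earlier results of these data known. The text names the 10 called members with the largest change in each direction and no overlap between groups, and gives the others by role. Other called members were named after their values were seen. Simulated data were used to test the limma fit of the DDC line against the empty vector and the edgeR fit of H3K4me3 regions for these lines. The other steps, such as the mark by line term and the comparison between the lines, were not tested in this way. A few genes, 2 members among them, are not reported here but stay in all counts. SLC6A4 input was not analysed here.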

Additional observations from a re-analysis of the deposited data

Results flagged for a closer look

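Members differed between the DDC and SLC6A4 lines when these were compared directly with limma over all genes, with values given as log2 of the DDC line minus the SLC6A4 line. Lower in the DDC line were SLC7A5 (-0.46), SLC29A1 (-0.31), SLC27A5 (-0.26) and SLC39A1 (-0.26). Higher in the DDC line were SLC3A2 (0.23), SLC39A7 (0.25), SLC25A3 (0.26), SLC48A1 (0.38) and SLC38A2 (0.53). SLC38A2 kept its call under every alternative, although 1 of its DDC libraries lay among the SLC6A4 libraries.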

How the results depend on the processing

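No member RNA call reversed under an alternative, nor did any region recomputed singly (8 for each mark in each line, 8 for each mark by line term and 4 of the input). Scaling RNA by library size alone gave 5 members higher in the DDC line (8 in the main result), and 1 higher and 11 lower between the lines (5 and 5). It gave 6 and 11 regions for the mark by line term in the SLC6A4 line (15 and 4). DESeq2 gave 3 lower members in the DDC line (7), 4 higher and 3 lower H3K4me3 regions in the DDC line (8 and 5), 0 input regions (4) and 1 lower mark by line region in the SLC6A4 line (4). Without a filter, 3 and 3 members were called between the lines and 2 input regions. With only the 6 libraries of both lines, 3 were lower. The 33 members at a level of at least 200 gave 5 higher and 4 lower in the DDC line, and the 90 genes at 50 or more gave 11 lower in the SLC6A4 line. The 42 members with under 10% of exon bases shared, an alternative added after seeing the data, gave 5 higher in the DDC line, 7 higher in the SLC6A4 line (12) and 3 lower between the lines.

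With each library left out in turn, members numbered 6 to 9 higher and 3 to 6 lower in the DDC line, 8 to 12 and 5 to 6 in the SLC6A4 line, and 1 to 5 and 1 to 6 between the lines. H3K4me3Q5ser regions numbered 25 to 27 and 11 to 12 in the DDC line and 36 to 39 and 9 to 11 in the SLC6A4 line. H3K4me3 regions numbered 5 to 9 and 2 to 5, and 25 to 30 and 7 to 9. Input regions numbered 1 to 3. The mark by line term gave 6 to 8 and 2 to 4 in the DDC line, and 12 to 17 and 1 to 5 in the SLC6A4 line. Same-numbered libraries did not deviate together (correlations -0.108 to 0.019). These values show no shared effect of the number but cannot tell whether such libraries were prepared together. With the replicate block, RNA calls were 9 and 7, 10 and 8, and 4 and 4, input regions 2, and the other region counts those of the main result. Input of the SLC6A4 line and CUT&Tag tests were not run.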
